A study of Mus musculus with 7 samples.

Results

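The Ifi200 or PYHIN cluster is a run of related interferon-inducible genes on mouse chromosome 1. The 9 members described here are Ifi203, Ifi204, Ifi205, Ifi207, Ifi209, Ifi211, Ifi213, Mndal and Aim2, taken by gene symbol from the 20343 genes of the table. Other PYHIN rows inside the cluster, namely Ifi202b, Ifi206, Ifi208, Ifi214 and the pseudogene Ifi203-ps, are described beside them, which makes 14 rows. Polyadenylated RNA was sequenced from the apical heart muscle of 4 control and 3 transferred mice. All were NSG-DR1 mice, labelled NSG-DRB1*0101. NSG is an immunodeficient strain with a NOD background that lacks mature T, B and NK cells, and the HLA-DR1 transgene lets human CD4+ T cells see antigen. Control mice were untreated. Transferred mice were given human CD4+ T cells and their hearts were taken 6 weeks later, so the strain and the transgene are shared by both groups. Age, sex and the number of donors are not given in the sources used here, and p-values measure the spread between these hearts.

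PYHIN proteins carry a pyrin domain, which joins other pyrin domains, or a HIN domain, which binds DNA, and most carry both. Aim2 senses DNA in the cytosol and recruits the adaptor ASC, encoded by Pycard, to form an inflammasome that activates caspase-1. Ifi204, often compared with human IFI16, takes part in DNA sensing and in macrophage differentiation, and Ifi205 is known in myeloid cells. The p202 protein of Ifi202b lacks the pyrin domain and can restrain Aim2. Most of these genes are induced by interferon and are best known in macrophages and other blood-derived cells.

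The counts cover chromosomes 1 to 7 and the start of chromosome 8, and their sums ranged from 16402194 to 25190580 per heart. Counts were scaled to library size by the trimmed mean of M values (TMM) and are given as CPM, with a floor of 0.115 to 0.189 CPM per heart at 3 counts, for counting error only. Labelled tissue matched its markers, with 119700 to 149200 CPM summed over 8 cardiomyocyte genes. Of the mouse lymphoid markers, 5 B cell genes summed to at most 0.423 CPM, with Pax5 at 0 counts in the 7 hearts. The 14 T and NK cell genes summed to 29.8 to 39.98 CPM, most of it Cd28 (21.9 to 31.4 CPM), and Ncr1 and Klrb1c had 0 counts.

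The members lie between positions 173349547 and 174031755 of chromosome 1 (GRCm38), a span of 682 kb. In order along the chromosome the rows are Aim2, Ifi206, Ifi214, Ifi213, Ifi209, Ifi208, Ifi207, Ifi204, Ifi203-ps, Mndal, Ifi211, Ifi203, Ifi202b and Ifi205. Aim2, Ifi209 and Ifi208 are on the plus strand and the rest on the minus strand. The Aim2 row is 116.5 kb long (173349547 to 173466040); its RefSeq promoter window (173420354 to 173420653) lies inside it, and the row overlaps the opposite-strand gene Cadm3 (173331892 to 173368139), and whether the counting used strand is not stated.

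Interferon acts on many of its target genes through the interferon-stimulated response element, a promoter sequence. Promoters were therefore searched for the letters GAAANNGAAA on both strands, over 250 bases before to 50 bases after each gene start (RefSeq, GRCm38.p6). Of the 8 members with a promoter entry, 6 held a match, against 3.99% of 27025 genes. Entries were found for Aim2, Ifi203, Ifi205, Ifi207, Ifi209, Ifi211, Ifi213 and Mndal but not for Ifi204, and those of Aim2 and Ifi209 held no match to these letters. A form of it copied from the Ifi207 promoter, GAAATCGAAA, was found in the promoters of 16 of the 27025 genes (0.0592%). Because the letters come from a member of a family of copies, hits in this family are no independent result; 7 of the 16 genes were PYHIN rows: Ifi203, Mndal, Ifi207, Ifi213, Ifi208, Ifi206 and Ifi214. A match is a description of letters and shows no binding. The stretches of 50 bases below are shown because they place this shared element beside members whose levels differed in different ways, 5′ to 3′ on the gene's strand with the match in capitals.
Ifi207, chr1:173741821-173741870, minus strand: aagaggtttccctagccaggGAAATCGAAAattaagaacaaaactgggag
Ifi211, chr1:173913054-173913103, minus strand: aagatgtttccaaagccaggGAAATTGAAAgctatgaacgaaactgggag
Ifi205, chr1:174031860-174031909, minus strand: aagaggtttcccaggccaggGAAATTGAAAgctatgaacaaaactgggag
Ifi203, chr1:173942498-173942547, minus strand: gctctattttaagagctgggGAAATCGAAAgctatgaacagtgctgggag
Mndal, chr1:173880194-173880243, minus strand: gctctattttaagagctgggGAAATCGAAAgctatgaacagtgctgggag
Ifi213, chr1:173599316-173599365, minus strand: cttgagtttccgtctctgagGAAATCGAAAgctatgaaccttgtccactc
Ifi208, chr1:173673587-173673636, plus strand: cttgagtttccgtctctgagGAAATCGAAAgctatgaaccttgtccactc

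The Ifi203 and Mndal stretches were identical over all 50 bases, as were those of Ifi213 and Ifi208. Ifi205 and Ifi211 shared 46 of 50 bases, Ifi205 and Ifi207 44, and Ifi207 and Ifi203 32. The match began 35 bases before the start of Ifi203, 36 before Mndal, 37 before Ifi211 and 41 before Ifi207. It began 58 bases before Ifi208, 73 before Ifi213 and 134 before Ifi205. Ifi203 and Mndal each have a second listed start, and these distances are for the start whose window holds the printed match. The members are copies of one another, so their promoters are not independent examples.

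Likeness also extends into the transcripts. In GENCODE M21 transcripts, 63.6% of the 75-base stretches of Ifi211 occur in another PYHIN gene, 40.6% in Ifi205 alone and 23.0% in Ifi204. This share was 23.1% for Ifi209, all of it with Ifi214, 16.6% for Ifi205, 13.2% for Ifi204, 9.94% for Mndal, 8.07% for Ifi213, 5.71% for Ifi203 and 1.53% for Ifi207, and 0% for Aim2 and Ifi202b. The table holds fractional values for most members, in 6 of 7 hearts for Ifi204, Ifi205, Ifi207, Ifi211 and Mndal and in 5 for Ifi203. Dividing a read that matches several genes among them gives such values, and how these reads were treated is not given in the sources used here. Summed over the 14 rows, counts came within 0.02 of a whole number in 7 of 7 hearts. Shared stretches and fractional values did not go together in every row. Ifi209 (23.1% shared) had whole counts in every heart, while Ifi202b (0% shared) had 147.5 in transferred heart 3. Fold changes of single members with shared stretches may be uncertain in a way that the cluster sum is not, which was not tested.

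One row split the hearts without regard to treatment. Ifi202b had 84 counts in control heart 1, 397 in transferred heart 1 and 147.5 in transferred heart 3. It had 0 counts in control hearts 2, 3 and 4 and in transferred heart 2, where 3 counts would be 0.115 to 0.189 CPM. Of 20343 rows, Ifi202b was the 1 row with 0 counts in those 4 hearts and at least 50 in each of the other 3. In CPM it was at 4.08 in control heart 1 and at 20.1 and 7.31 in transferred hearts 1 and 3. RNA levels of Ifi202b are known to differ between inbred mouse strains, with little in C57BL/6, whose genome is the reference used here. The genotype of the hearts at this cluster was not analysed here. Identifiers of the animals begin with letters for 1 heart of each group (control 1, transferred 1) and are plain numbers for the rest. The hearts with letters have Ifi202b counts, and of those with plain numbers only transferred heart 3 has them. A link between the split and the identifiers was not tested.

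Other rows of the cluster shared the split. Ifi203-ps was at 16.4, 1.94, 2.15 and 2.08 CPM in control hearts 1 to 4 and at 24.7, 3.29 and 19.3 CPM in transferred hearts 1 to 3. Its counts were 0.198, 0.167 and 0.231 of those of Ifi203 in the 3 hearts with Ifi202b counts, and 0.0658 to 0.0786 of them in the 4 others. Mndal counts relative to Ifi211 were 1.085, 0.95 and 0.935 in those 3 hearts and 0.315 to 0.368 in the 4 others. The rows that share the split, chosen after seeing it, are Ifi203, Mndal, Ifi203-ps and Ifi202b, so their summed share is a description. Together they made up 49.4% of the PYHIN counts in control heart 1 (95% Wilson interval 48.1 to 50.7%), 48.1% in transferred heart 1 (47.1 to 49.0%) and 43.6% in transferred heart 3 (42.5 to 44.8%). In the other 4 hearts the share ran from 19.5% in transferred heart 2 (18.6 to 20.4%) to 27.3% in control heart 3 (26.02 to 28.7%). These intervals cover counting error only, since reads are not independent molecules. Control heart 1 was thus close to transferred heart 1 in make-up, and control heart 2 (20.01%) to transferred heart 2.

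**Figure D1:**
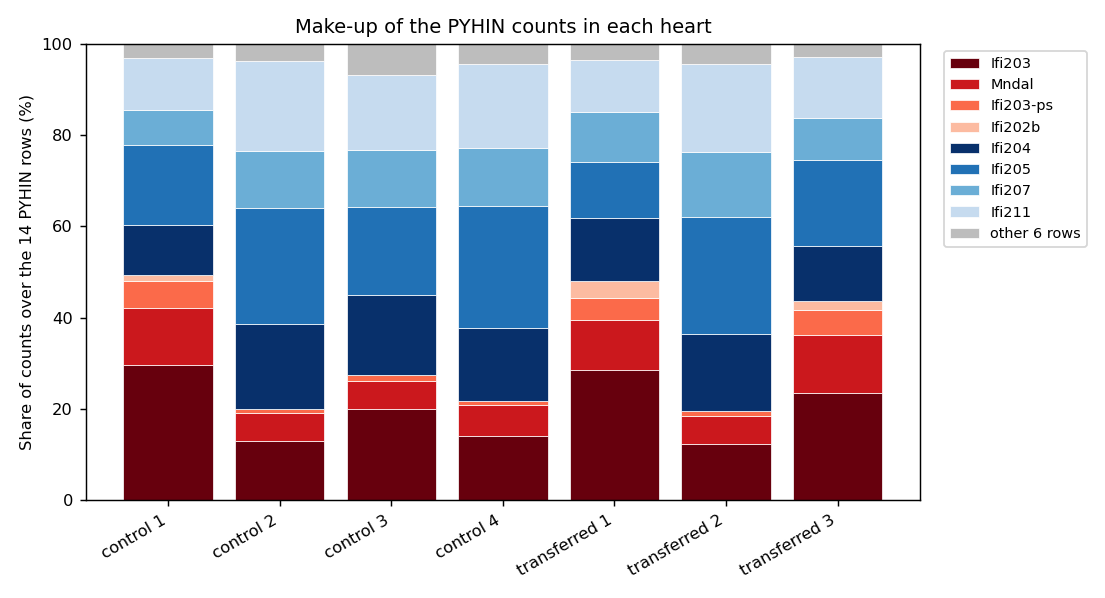
Stacked bars give the share (%) of the counts over the 14 PYHIN rows taken by each gene in each heart; reds are Ifi203, Mndal, Ifi203-ps and Ifi202b, and blues are Ifi204, Ifi205, Ifi207 and Ifi211. The red part takes 43.6 to 49.4% in control heart 1 and transferred hearts 1 and 3 and 19.5 to 27.3% in the other 4 hearts.

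The 14 rows of the cluster summed to 280.8, 204.8, 160.5 and 225.5 CPM in control hearts 1 to 4 and to 521, 343 and 354 CPM in transferred hearts 1 to 3. The lowest transferred sum lay above the highest control sum, but the rows that follow the Ifi202b split make up 43.6 to 49.4% of the sum in 2 of 3 transferred hearts and in 1 of 4 control hearts. The 4 rows Ifi204, Ifi205, Ifi207 and Ifi211, which do not follow the Ifi202b split, summed to 105.8 to 166.9 CPM in control hearts and 189.6 to 261 CPM in transferred hearts. No test was run on these sums.

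No member passed the test after adjustment. Of the 9 members, 8 passed the low-count filter, and 0 of 8 had an adjusted p under 0.05 in the edgeR quasi-likelihood test, against 0.235% of all 7667 tested genes (0.13% for higher levels alone). At an unadjusted p under 0.05, 5 of the 8 were higher in transferred hearts (Ifi207, Ifi204, Ifi211, Ifi205 and Ifi209), against 7.17% of tested genes. In 4 of the 8 every transferred heart lay above every control heart, against 5.99% of tested genes. The median log2 fold change of the 8 was 0.87, and that of all tested genes was -0.002. DESeq2 called 3 of the 8 (Ifi207, Ifi204 and Ifi211), against 3.26% of the 7667 genes, and 6 had an unadjusted p under 0.05, against 12.9%. Total count scaling in edgeR called 1 (Ifi207, adjusted p = 0.05 after rounding), against 0.457%. For limma-voom it was 0 called, against 0% of all genes, and 6 at an unadjusted p under 0.05, against 11.8%.

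**Figure D2:**
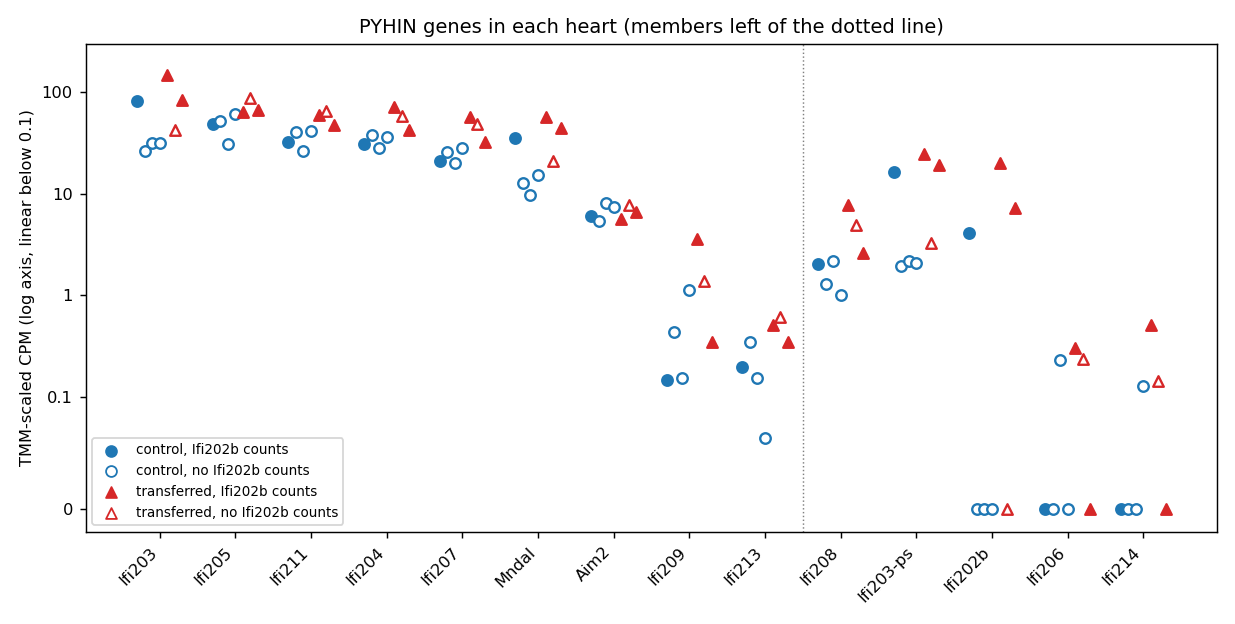
Points are TMM-scaled CPM (log axis, linear below 0.1) of each PYHIN row in each heart, circles for the 4 control and triangles for the 3 transferred hearts; filled symbols mark the 3 hearts with Ifi202b counts. Triangles lie above circles for Ifi204, Ifi205, Ifi207 and Ifi211, while filled symbols lie above open ones for Mndal and Ifi203-ps.

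Ifi207 had the smallest p of the members. It was at 21.2, 25.9, 20.3 and 28.5 CPM in control hearts 1 to 4 and at 57.1, 49.2 and 32.7 CPM in transferred hearts 1 to 3, with no overlap and with transferred heart 3 nearest the controls. The means were 24.0 ± 3.88 CPM (SD, n = 4) and 46.3 ± 12.5 CPM (SD, n = 3). The log2 fold change was 0.95 ± 0.19 (SE; edgeR adjusted p = 0.0764). Although Ifi207 shares the fewest 75-base stretches of the 4 members without overlap, its values were fractional in 6 of 7 hearts.

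Ifi204, the DNA sensor compared with human IFI16, also had its highest value in transferred heart 1 and its lowest in control heart 3. It was at 30.8, 38.0, 28.4 and 36.3 CPM in control hearts and at 71.6, 57.9 and 42.7 CPM in transferred hearts. The highest control heart was again below the lowest transferred heart. The log2 fold change was 0.78 ± 0.17 (SE; edgeR adjusted p = 0.0995).

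Ifi211 and Ifi205, which share stretches as given above, peaked in transferred heart 2 instead of transferred heart 1. Ifi211 was at 32.5, 40.5, 26.4 and 41.6 CPM in control hearts and at 59.8, 65.9 and 47.7 CPM in transferred hearts, a log2 fold change of 0.72 ± 0.17 (SE; edgeR adjusted p = 0.125). Ifi205 was at 49.1, 52.1, 30.7 and 60.5 CPM in control hearts and at 63.6, 87.8 and 66.6 CPM in transferred hearts. The lowest transferred value, 63.6 CPM, was close to the highest control value, 60.5 CPM, beside a control SD of 12.6 CPM. Its log2 fold change was 0.60 ± 0.21 (SE; edgeR adjusted p = 0.295).

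Ifi203 and Mndal had larger fold changes with wider errors. Ifi203 was at 82.9, 26.3, 32.0 and 31.7 CPM in control hearts 1 to 4 and at 149, 42.2 and 83.4 CPM in transferred hearts 1 to 3. Control heart 1 was above transferred heart 2 and close to transferred heart 3, so the groups overlapped. The log2 fold change was 1.08 ± 0.57 (SE; edgeR adjusted p = 0.526). Mndal was at 35.3, 12.8, 9.75 and 15.1 CPM in control hearts and at 56.8, 21.2 and 44.6 CPM in transferred hearts, with the same 3 hearts on top. Its log2 fold change was 1.17 ± 0.51 (SE; edgeR adjusted p = 0.422).

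The comparison was repeated within hearts alike in Ifi202b counts, which was chosen after seeing the data. Among the 4 hearts without such counts (3 control, 1 transferred), the log2 fold change was 0.51 ± 0.16 (SE) for Ifi203 and 0.77 ± 0.25 (SE) for Mndal. Among the 3 hearts with them (1 control, 2 transferred), it was 0.48 ± 0.40 (SE) for Ifi203 and 0.52 ± 0.23 (SE) for Mndal. Both fits rest on 1 heart in one arm, which is assumed to vary like the other group. Since Ifi203 and Mndal follow the split by which the hearts were divided, lower values than over all 7 hearts follow from that choice, and no weight rests on them.

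In the same fits, the log2 fold change of Ifi207 was 1.0 ± 0.19 (SE) without Ifi202b counts and 1.08 ± 0.38 (SE) with them. The first fit has 1 transferred heart, so its edgeR calls (2.78% of 8065 genes, Ifi207 among them) carry no replicate information on that group, and the second called 0% of 7884 genes. The values for Ifi204 were 0.77 ± 0.17 (SE) and 0.89 ± 0.35 (SE), and those for Ifi211 were 0.88 ± 0.23 (SE) and 0.72 ± 0.22 (SE). Ifi205 was at 0.90 ± 0.34 (SE) and 0.41 ± 0.17 (SE), and Ifi209 at 1.36 ± 0.86 (SE) and 3.70 ± 1.81 (SE); these pairs of values differ by little more than their standard errors. With the presence of Ifi202b counts as a covariate over the 7 hearts, Ifi203 was at 0.49 ± 0.20 (SE), Mndal at 0.65 ± 0.17 (SE) and Ifi207 at 1.03 ± 0.21 (SE; edgeR adjusted p = 0.0778). In that fit 0 of 8 members passed the edgeR threshold, against 0.835% of tested genes, and 6 had an unadjusted p under 0.05, against 12.3%. Ifi203 and Mndal, which follow the covariate, are among the 6. The number 6 follows in part from that choice, made after seeing the data, and no weight rests on it. Within Ifi202b itself, transferred hearts 1 and 3 were above control heart 1, the 1 control heart with counts.

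**Figure D3:**
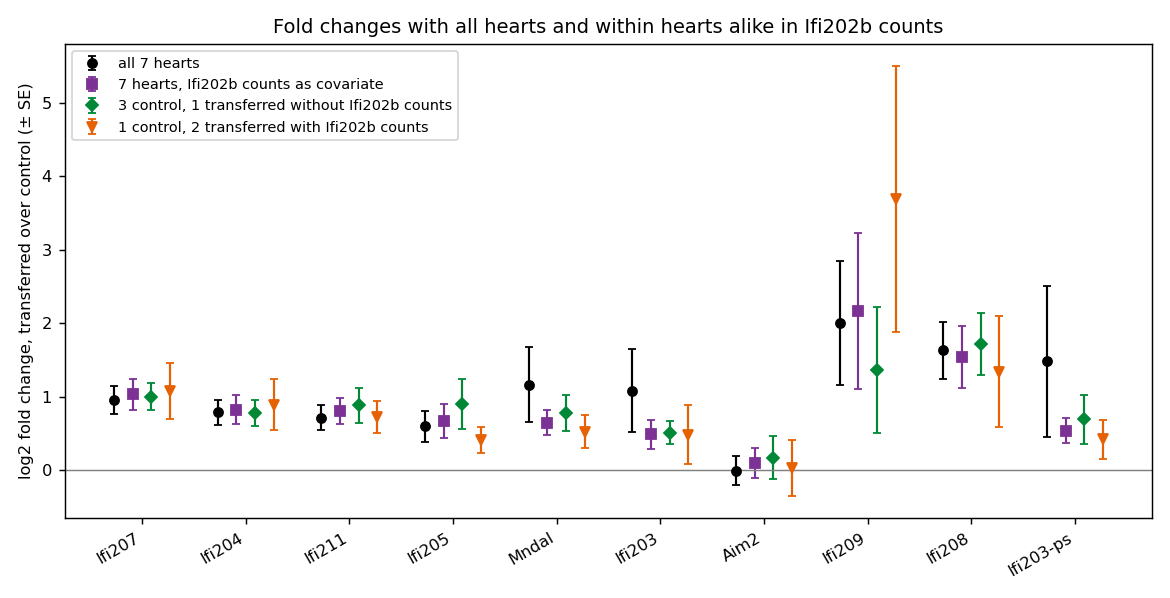
Points are log2 fold changes of transferred over control hearts with standard errors, for all 7 hearts, with Ifi202b counts as a covariate, and within the hearts without or with such counts. Ifi203, Mndal and Ifi203-ps are lower in the 3 added fits (0.49 for Ifi203 with the covariate against 1.08). These rows share the split on which the added fits rest, so their lower values follow from that choice. Ifi205 runs from 0.41 to 0.90 across the added fits, Ifi209 from 1.36 to 3.70 and Ifi207 from 1.0 to 1.08.

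Aim2, the founding inflammasome sensor of the family, did not differ detectably. It was at 6.03, 5.38, 8.06 and 7.45 CPM in control hearts and at 5.62, 7.76 and 6.67 CPM in transferred hearts, and the groups overlapped fully. The log2 fold change was -0.01 ± 0.20 (SE; edgeR adjusted p = 0.992). Its 577 control and 411 transferred counts were whole numbers in every heart. Cadm3, whose row overlaps that of Aim2 on the other strand, differed by 0.62 on the log2 scale, with an adjusted p of 0.11 in edgeR.

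Ifi209 and Ifi213 were rare. Ifi209 had 3, 10, 4 and 18 counts in control hearts and 71, 29 and 7 in transferred hearts, and its log2 fold change was 2.0 ± 0.84 (SE; edgeR adjusted p = 0.377). Transferred heart 3 lay within the control range. Ifi213 had 4, 8, 3.5 and 1 counts in control hearts and 9.5, 13 and 7 in transferred hearts, and was under the filter, so it was not tested.

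Of the other PYHIN rows, Ifi208, which encodes a pyrin-domain protein, showed the clearest separation. It was at 2.04, 1.29, 2.15 and 1.01 CPM in control hearts and at 7.75, 4.94 and 2.62 CPM in transferred hearts, all whole counts. The log2 fold change was 1.63 ± 0.39 (SE; edgeR adjusted p = 0.127). Leaving out single hearts gave 1.204 to 1.945; of these 7 edgeR fits, that without transferred heart 3 passed (adjusted p = 0.0321, against 0.172 to 0.343 in the other 6). DESeq2 called Ifi208 over all 7 hearts (adjusted p = 0.00587). Ifi206 and Ifi214 had at most 6.5 and 10 counts in a heart and were not tested. For Ifi203-ps the log2 fold change was 1.48 ± 1.03 (SE; edgeR adjusted p = 0.635). It was 2.93 without control heart 1 and 1.0 without transferred heart 1.

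Levels between genes were compared per kilobase of combined exon. In control hearts the order by median was Ifi205 (31.4 CPM per kb), Ifi211 (18.97), Ifi204 (13.7), Ifi207 (6.43), Ifi203 (4.19), Mndal (2.83), Aim2 (0.635), Ifi209 (0.0835) and Ifi213 (0.0184). The control ranges of Ifi205 and Ifi211 overlapped (19.04 to 37.5 and 13.7 to 21.6 CPM per kb), as did those of Ifi211 and Ifi204 (11.6 to 15.5 CPM per kb). Ifi207 (5.54 to 7.78) lay below Ifi204 in every control heart. The ranges of Ifi207, Ifi203 (3.45 to 10.9) and Mndal (1.98 to 7.16) overlapped. Aim2 (0.507 to 0.76) lay below Mndal and above Ifi209 (0.0417 to 0.325) without overlap. In transferred hearts the 3 highest medians were again Ifi205 (41.3), Ifi211 (31.1) and Ifi204 (23.7 CPM per kb).

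The list of cytosolic nucleic acid sensing genes held 10 tested genes. The listed genes Cgas, Sting1 and Tbk1 of DNA sensing were not rows of the table, so the list does not cover DNA sensing as a whole. Of the 10 tested genes, 0 passed the edgeR threshold, against 0.235% of all tested genes. At an unadjusted p under 0.05, 7 were higher, against 7.17% of all tested genes, and 0 lower. The median log2 fold change was 0.74. Irf7, the transcription factor that amplifies interferon production, was at 22.6 to 25.95 CPM in control hearts and at 931.5, 119.1 and 27.3 CPM in transferred hearts 1 to 3. Its log2 fold change was 3.89 ± 1.11 (SE; edgeR adjusted p = 0.253). Zbp1, a sensor of Z-form nucleic acid, was at 0.924 to 1.89 CPM in control hearts and at 27.4, 7.76 and 2.52 CPM in transferred hearts. Transferred heart 3 was the lowest of the transferred hearts for both. The log2 fold change was 3.32 for Zbp1, 1.09 for Ifih1, 0.97 for Ikbke, 0.87 for Ddx58, 0.61 for Adar and 0.33 for Samhd1. The RNA sensors Ifih1 and Ddx58 were highest in transferred heart 1, at 61.7 and 105.8 CPM.

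Upstream, the list of interferon receptor and JAK-STAT genes held 6 tested genes, with a median log2 fold change of 0.85. The edgeR threshold was passed by 0 of them, against 0.235% of all tested genes. At an unadjusted p under 0.05, 3 were higher, against 7.17% of all tested genes, and 0 lower. The interferon genes Ifnb1, Ifna1, Ifna2 and Ifna4 had 0 counts in every heart. Isg15, a ubiquitin-like protein, was at 10.6 to 13.6 CPM in control hearts and at 111.1, 29.3 and 9.93 CPM in transferred hearts, so transferred heart 3 was below the controls. Usp18, which removes Isg15 from proteins and dampens receptor signalling, was at 6.47 to 9.84 CPM and at 81.2, 21.2 and 7.86 CPM. The transcription factor Irf5 had a log2 fold change of 0.61. Transferred heart 3 was thus within or below the control range for Isg15 and Usp18, as it was for Ifi209. It was above that range for Irf5, Irf7, Ifih1 and Zbp1, as it was for Ifi204, Ifi205, Ifi207 and Ifi211.

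Downstream of Aim2, the list of inflammasome and pyroptosis genes held 6 tested genes with a median log2 fold change of 0.19. None of the 6 passed the edgeR threshold, against 0.235% of all tested genes. At an unadjusted p under 0.05, 2 were higher, against 7.17% of all tested genes, and 0 lower. Pycard, the ASC adaptor, was at 14.5 to 16.7 CPM in control hearts and at 18.6, 29.8 and 20.1 CPM in transferred hearts, a log2 fold change of 0.59 ± 0.16 (SE; edgeR adjusted p = 0.182). Il1b, the cytokine that caspase-1 matures, was at 0.778 to 2.20 CPM and at 2.28, 11.2 and 3.31 CPM, or 1.86 ± 0.56 on the log2 scale (SE; edgeR adjusted p = 0.221). Both were highest in transferred heart 2. The 4 neutrophil markers summed to 11.1, 249.5 and 34.8 CPM in transferred hearts 1 to 3, against 7.60 to 11.02 CPM in control hearts. Their median log2 fold change was 3.75, and 0 of the 4 passed the edgeR threshold. The part of neutrophils in the Pycard and Il1b values was not tested.

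**Figure D4:**
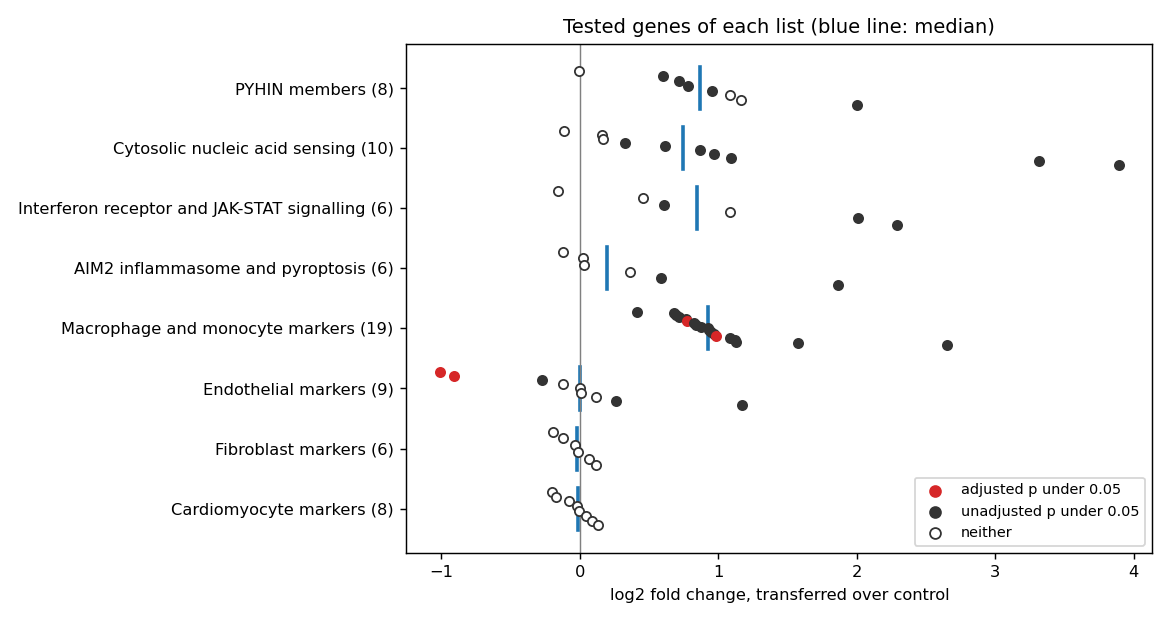
Points are log2 fold changes of the tested genes of each list, with the number tested in brackets and the median as a blue line; red marks an adjusted p under 0.05 and black an unadjusted p under 0.05 in edgeR. Medians are 0.87 for the PYHIN members, 0.93 for the macrophage markers, 0.85 for the interferon receptor and JAK-STAT list and 0.74 for nucleic acid sensing, while those of the fibroblast and cardiomyocyte lists are -0.02 and -0.01.

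Markers of macrophages and monocytes had higher sums in transferred hearts as well. Of 19 markers in the table, 19 were tested and 2 passed the edgeR threshold (Mrc1 and C1qb, both higher), against 0.235% of all tested genes. At an unadjusted p under 0.05, 19 were higher, against 7.17% of all tested genes. The median log2 fold change was 0.93. Neither Mrc1 nor C1qb passed with limma-voom, with the prefix as a covariate, in the number-only hearts or in 6 of the 7 edgeR fits that leave out a heart. The CPM of the 19 markers summed to 652 to 957 in control hearts and to 1525, 1668 and 1110 in transferred hearts 1 to 3, and no marker of the list was at 0 in every heart. In whole tissue, more cells of a type and more RNA per cell cannot be told apart. Per 1000 CPM of these markers, Ifi207 was at 27.5 to 33.9 CPM in control hearts and at 37.5, 29.5 and 29.4 CPM in transferred hearts. The corresponding values were 37.9 to 49.6 and 34.7 to 47.0 CPM for Ifi204, 40.5 to 52.9 and 39.2 to 43.0 CPM for Ifi211, and 47.1 to 68.0 and 41.7 to 60.0 CPM for Ifi205. Relative to the marker sum, the groups therefore overlapped for these 4 members.

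Relative to the same sum, Ifi203 was at 107.2, 97.4 and 75.1 CPM per 1000 in the 3 hearts with Ifi202b counts and at 25.3 to 49.1 in the other 4. Mndal was at 45.7, 37.3 and 40.2 against 12.7 to 16.7. Both were lowest in transferred heart 2, which had the highest marker sum of the 7 hearts. The part of macrophage content in the group differences was not tested.

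**Figure D5:**
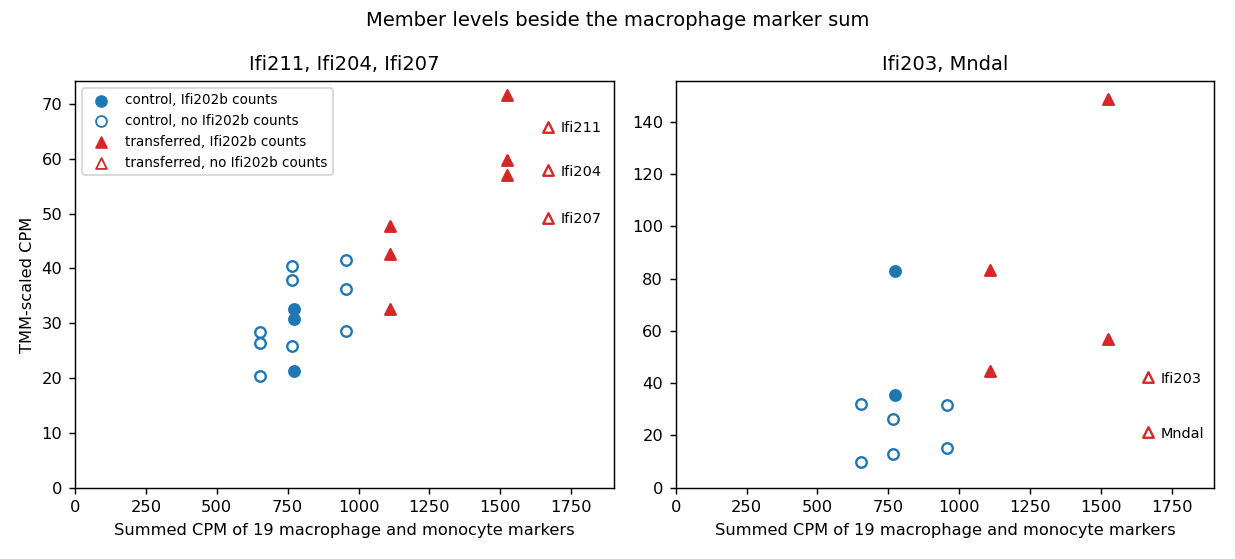
Each point is a heart, with the summed CPM of 19 macrophage and monocyte markers on the x axis and the CPM of a member on the y axis; symbols are as in the plot of CPM by heart. Ifi211, Ifi204 and Ifi207 are lowest in control heart 3, where the marker sum is lowest (652), while Ifi203 and Mndal are higher in the 3 hearts with Ifi202b counts (filled).

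The tested genes with the profile most like the mean of the 8 tested members were C1ra, Herc6, C1rb, C1qa and Folr2. Likeness was the root-mean-square difference of centred log2 CPM over the 7 hearts, among 6993 genes of at least 1 CPM. It was 0.11 for C1ra and Herc6, 0.12 for C1rb, 0.16 for C1qa and 0.17 for Folr2. C1ra and C1rb are paralogous complement genes, between which reads can be hard to assign, Herc6 is an interferon-inducible ligase, and C1qa and Folr2 are expressed by tissue macrophages. Among the members, Ifi204 (0.17) and Ifi207 (0.2) were nearest to that mean, and Ifi203 (0.60), Ifi209 (0.58), Mndal (0.57) and Aim2 (0.55) farthest from it.

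Beyond the cluster, 12 tested genes that are not PYHIN genes lay within 1 Mb of it. Their median log2 fold change was 0.11, with 0 past the edgeR threshold, against 0.235% of all tested genes. At an unadjusted p under 0.05, 4 were higher, against 7.17% of all tested genes, and 0 lower. The 3 highest were Ackr1 (2.90), Slamf8 (1.42) and Slamf9 (0.94), and low values were found for Cfap45 (-0.56) and Dusp23 (-0.34). Ackr1, a chemokine-binding receptor, overlaps Cadm3 on the same strand. It was highest in transferred heart 2, at 5.55 CPM, against 0.252 to 0.43 CPM in control hearts.

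With the identifier prefix as a covariate, 0 of 8 members passed the edgeR threshold, against 0% of tested genes, and 6 had an unadjusted p under 0.05, against 12.7%. Within the 5 hearts with numbers alone as identifiers, the log2 fold change was 0.73 for Ifi207 and 0.57 for Ifi204 and 0 members passed, against 0% of tested genes (5 at an unadjusted p under 0.05 in edgeR, against 13.6%). The hearts with a prefix, 1 control and 1 transferred, leave no residual degrees of freedom for a test. Without transferred heart 3, Ifi207 and Ifi204 passed in edgeR (adjusted p = 0.0141 and 0.021), in a fit that called 1.8% of 7787 genes; the other 6 fits that leave out a heart called 0 members and between 0 and 27 of all genes tested. Without transferred heart 1, the log2 fold change of Ifi203 was 0.54 and of Ifi209 0.97, and without control heart 1 that of Mndal was 1.71.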

How the data were processed

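The authors deposited 1 table of raw counts per gene for the 7 hearts. Of its values, 4.63% have a fractional part, so these deposited values were treated as estimated counts and rounded. The submitters' processing notes name STAR 2.7.2b, featureCounts 1.6.4 and the build GRCm38.p6; how reads matching several genes were counted is not given in the sources used here. The last row was incomplete and left out, leaving 20343. Columns were matched to samples by title. The combined exon length of each gene is another value deposited in the table.

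Groups came from the treatment label, and replicates are named in accession order. Genes were filtered with filterByExpr, scaled with TMM and tested over all 7 hearts with the quasi-likelihood test of edgeR 4.0.16 (robust fit, Benjamini-Hochberg adjustment over 7667 genes, threshold 0.05) in R 4.3.3. CPM use TMM-scaled library sizes of this part of the genome. Standard errors are the log2 fold change over the root of the F statistic. DESeq2 1.42.0 and limma 3.58.1 were alternatives, with other scalings, filters, rounding, covariates and left-out hearts. The test was first run on simulated data. Likeness used log2 CPM after adding 0.5.

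The members, lists and naming rule were chosen with earlier results of these data known. The rule named all members and other PYHIN genes, list genes of the 3 pathway lists at an unadjusted p under 0.05, the 5 most alike genes, and the 3 highest and 3 lowest neighbours. Some items that this rule or the lists include are not reported here. Ifi203-ps, Cadm3 and the marker genes were named after their values were seen. Of 10 listed other PYHIN symbols, 4 were rows of the table; RefSeq gives Mnda, Pyhin1, Pydc3, Pydc4 and Ifi212 as other names of PYHIN rows already described. Beside the lists in the report, 3 of 7 dendritic cell genes were tested (median log2 fold change 0.10, 0 called), 4 of 14 T and NK cell genes (0.07, 0 called) and 9 endothelial genes (0.00, 2 called, both lower).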

Additional observations from a re-analysis of the deposited data

Results flagged for a closer look

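Among the 14 PYHIN rows, the 4 control hearts were checked for a heart far from the other 3 (a gap to the nearest heart that takes up nearly the whole range, by Dixon's test), and chance would mark about 0.7 of 14. Control heart 1 stood apart for Ifi203 at 82.9 CPM (26.3 to 32.0 CPM in the others), Ifi203-ps at 16.4 CPM (1.94 to 2.15 CPM) and Ifi202b at 4.08 CPM (0 counts in the others). These 3 rows lie in the same cluster and are high in the same hearts, so they are not independent. The other marked values rest on few counts: Ifi206 was at 0.23 CPM in control heart 3 (6.5 counts) and Ifi214 at 0.126 CPM in control heart 4 (2 counts), against 0 counts elsewhere among controls. For Ifi202b, Ifi206 and Ifi214 the other 3 control hearts are at 0 counts, so the check marks any value above 0. The expected 0.7 does not cover such rows.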

How the results depend on the processing

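Against 0 of 8 members past the edgeR threshold, total count scaling gave 1 (Ifi207), DESeq2 3 and, in a fit chosen after seeing the data, the 4 hearts without Ifi202b counts 1 of 9 tested (Ifi207), with 1 transferred heart assumed to vary like the controls and so no replicate information on that group. Leaving out each heart gave from 0 to 2. The members without Aim2 kept their direction in all alternatives, 21 for Ifi209 and 22 for each other tested member. Aim2 changed sign, from -0.008 to 0.01 with total count scaling, 0.002 with limma-voom, 0.009 with the prefix covariate, 0.06 in the number-only hearts, 0.17 in the hearts without and 0.027 in those with Ifi202b counts, and 0.098 with that covariate; leaving out single hearts gave -0.129 to 0.103, with 0.094 without control heart 3, 0.041 without control heart 4 and 0.103 without transferred heart 1. Against 4 list genes, total count scaling gave 8, keeping all genes with at least 1 count 10, DESeq2 30, limma-voom 0, the prefix covariate 0, number-only hearts 0, the hearts without Ifi202b counts 28, those with them 0, and that covariate 11; leaving out single hearts gave from 0 to 19. Over all genes, 18 calls became 35 with total count scaling, 250 with DESeq2 and 0 with limma-voom (907 at an unadjusted p under 0.05). For all of these, the cause was not tested. No paired analysis was possible because the labels give no numbers that pair hearts across groups. Counts were few for Ifi213, Ifi206 and Ifi214, which were under the low-count filter, and Ifi209 had from 3 to 71 counts in a heart.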
